A study of Mus musculus with 6 samples.

Results

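Mast cells were followed in the mouse aortic valve through 8 transcripts that mark them: Cpa3, Cma1, Mcpt4, Tpsb2, Fcer1a, Ms4a2, Hdc and Gata2. The genes were taken by name from a table of 46983 genes, and all 8 were found. The aortic valves came from wild type C57BL/6J mice at postnatal day 2 (PND2) or at 4 months, with 3 libraries at each age. Each library was made from total RNA of the pooled valves of 5 to 6 mice, so that differences between single animals were averaged before sequencing. Age was the single factor compared. The question was which of these transcripts differed between the growing neonatal valve and the adult valve.

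Mast cells are tissue-resident immune cells that mature from blood-borne progenitors under the control of stem cell factor and its receptor KIT. They store histamine, heparin-bearing serglycin and proteases in cytoplasmic granules and release them when IgE bound to the high-affinity receptor FcεRI is cross-linked by antigen. In mouse connective tissue the granules hold carboxypeptidase A3 (Cpa3), the chymases mouse mast cell protease 5 (Cma1) and 4 (Mcpt4), and the tryptase mouse mast cell protease 6 (Tpsb2). Fcer1a and Ms4a2 encode the alpha and beta chains of FcεRI, Hdc encodes histidine decarboxylase, the enzyme that makes histamine, and Gata2 encodes a zinc finger transcription factor that mast cells need. Some members are shared with other cells: basophils also express Cpa3, the FcεRI chains, Hdc and Gata2, neutrophils and macrophages can express Hdc, and Gata2 is an endothelial gene as well.

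All positions are those of mm10. Cma1 (ENSMUSG00000022225, chr14:55941453-55944661) and Mcpt4 (ENSMUSG00000061068, chr14:56059744-56062310) both lie on the minus strand of chromosome 14. Cpa3 (ENSMUSG00000001865) spans chr3:20215620-20242181 on the minus strand, and Tpsb2 (ENSMUSG00000033825) spans chr17:25366550-25368094 on the plus strand. Fcer1a (ENSMUSG00000005339) is at chr1:173221284-173227214 and Ms4a2 (ENSMUSG00000024680) at chr19:11615523-11623719, both on the minus strand. Hdc (ENSMUSG00000027360) is at chr2:126593667-126619299 on the minus strand and Gata2 (ENSMUSG00000015053) at chr6:88193891-88207032 on the plus strand. Cpa3 overlapped 1 other annotated gene, the microRNA gene Mir7007 on the same strand, whose reads cannot be told apart from it, and the other 7 members overlapped none.

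The members were not chosen by sequence, and their promoters were searched for the letters that GATA factors recognize (AGATAA plus AGATAG plus TGATAA plus TGATAG, on either strand). The search covered 250 bases before to 50 bases after each RefSeq start site on GRCm38.p6. Of the 7 members with a promoter in the table, 6 held at least 1 match (Cpa3, Cma1, Mcpt4, Fcer1a, Ms4a2 and Hdc), against 33.0% of 27025 genes and 29.8% of 32851 promoters. Gata2 held none in either of its windows. Ms4a2 held 3 matches, and the other 5 genes held 1 each. The letters CACATG, an E-box of the kind bound by MITF, were found in Fcer1a alone among the members and in 14.2% of all promoters, and CACGTG was found in none of them and in 7.15% of all promoters. The 250 bases before the start are given below for 3 genes that were lower at 4 months (Cpa3, Cma1 and Hdc) and for Mcpt4, which was not, each read on the strand of the gene with the GATA letters in capitals.
Cpa3: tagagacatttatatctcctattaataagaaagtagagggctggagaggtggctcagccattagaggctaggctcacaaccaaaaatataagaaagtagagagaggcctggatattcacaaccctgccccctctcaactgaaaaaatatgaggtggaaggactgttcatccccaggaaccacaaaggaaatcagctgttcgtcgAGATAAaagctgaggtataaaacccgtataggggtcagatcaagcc
Cma1: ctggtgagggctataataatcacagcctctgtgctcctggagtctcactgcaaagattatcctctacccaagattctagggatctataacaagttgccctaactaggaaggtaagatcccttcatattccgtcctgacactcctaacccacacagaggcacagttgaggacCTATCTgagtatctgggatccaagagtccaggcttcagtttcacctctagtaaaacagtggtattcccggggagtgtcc
Mcpt4: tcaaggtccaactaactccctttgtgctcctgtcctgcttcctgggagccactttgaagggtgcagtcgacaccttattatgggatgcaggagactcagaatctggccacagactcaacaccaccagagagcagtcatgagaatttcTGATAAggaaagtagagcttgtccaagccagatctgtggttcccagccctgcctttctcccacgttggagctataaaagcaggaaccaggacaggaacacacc
Hdc: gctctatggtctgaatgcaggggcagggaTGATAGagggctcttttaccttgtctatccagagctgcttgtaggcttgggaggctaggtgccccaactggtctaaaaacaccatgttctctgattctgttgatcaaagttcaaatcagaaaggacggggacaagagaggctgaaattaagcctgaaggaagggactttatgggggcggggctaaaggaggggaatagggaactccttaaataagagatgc
These stretches are chr3:20242182-20242431 for Cpa3, chr14:55944676-55944925 for Cma1, chr14:56062311-56062560 for Mcpt4 and chr2:126618679-126618928 for Hdc, whose RefSeq start lies inside the span listed for the gene above. The match began 46 bases before the start in Cpa3, 79 bases before it in Cma1, 103 bases before it in Mcpt4 and 221 bases before it in Hdc. The match in Cma1 is on the reverse strand. Mcpt4, whose level did not pass the test between the ages, held such a match, as did Cpa3, Cma1 and Hdc.

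Expression was measured as RPKM, the reads on a gene scaled by its exonic length and by the library total, and library totals ran from 23810507 to 38994657 reads. Fold changes are on the log2(RPKM + 0.1) scale, 4 months minus PND2, with p-values of limma adjusted by Benjamini-Hochberg over the 25903 genes that reached 0.1 RPKM in 3 or more libraries. A gene was called at an adjusted p under 0.05, as were 35.8% of those tested. All 8 members entered the test, and 5 were called lower at 4 months, in a background where 21.1% of the genes tested were called lower. When each library was scaled to its median gene, all genes split into 4601 higher and 4129 lower, against 3810 and 5463 as deposited, and the same 5 members were lower. The calls depended on the test and on the genes it was adjusted over. In an unequal-variance test modelled on that of the study, with low values set to a floor of 10 reads and run here over the same 25903 genes, 1 of the 5, Cma1, was called (adjusted p = 0.0475), and the other 4 had adjusted p from 0.0514 to 0.0694. With a minimum of 50 reads in 2 libraries added, also after the study's methods but chosen after the data were seen, 19971 genes remained and 3 of the 5 were called by the unequal-variance test, Cma1 (adjusted p = 0.0374), Cpa3 (0.0406) and Tpsb2 (0.0426), while Gata2 (0.0512) and Hdc (0.0554) were not. The study's own gene lists gave Cpa3, Cma1 and Tpsb2 as downregulated at 4 months. Those lists were drawn from genes with an adjusted p (FDR) under 0.05 and a fold change above 2. The libraries of the 2 ages did not overlap for the 5 members called lower, as for 29.9% of all genes tested in that direction. None was called higher, against 14.7% of the genes tested, and at an unadjusted p under 0.05, and by voom on recovered reads, there was also none. The median log2 fold change of the members was -1.15, and that of all genes tested was -0.14 (-0.02 when each library was scaled to its median gene). Whether a lower value reflects fewer mast cells or less of the transcript in each cell cannot be told apart in these pooled tissues. Markers of other tissue in the libraries also differed with age, as given below, and the part of that tissue was not tested.

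**Figure D1:**
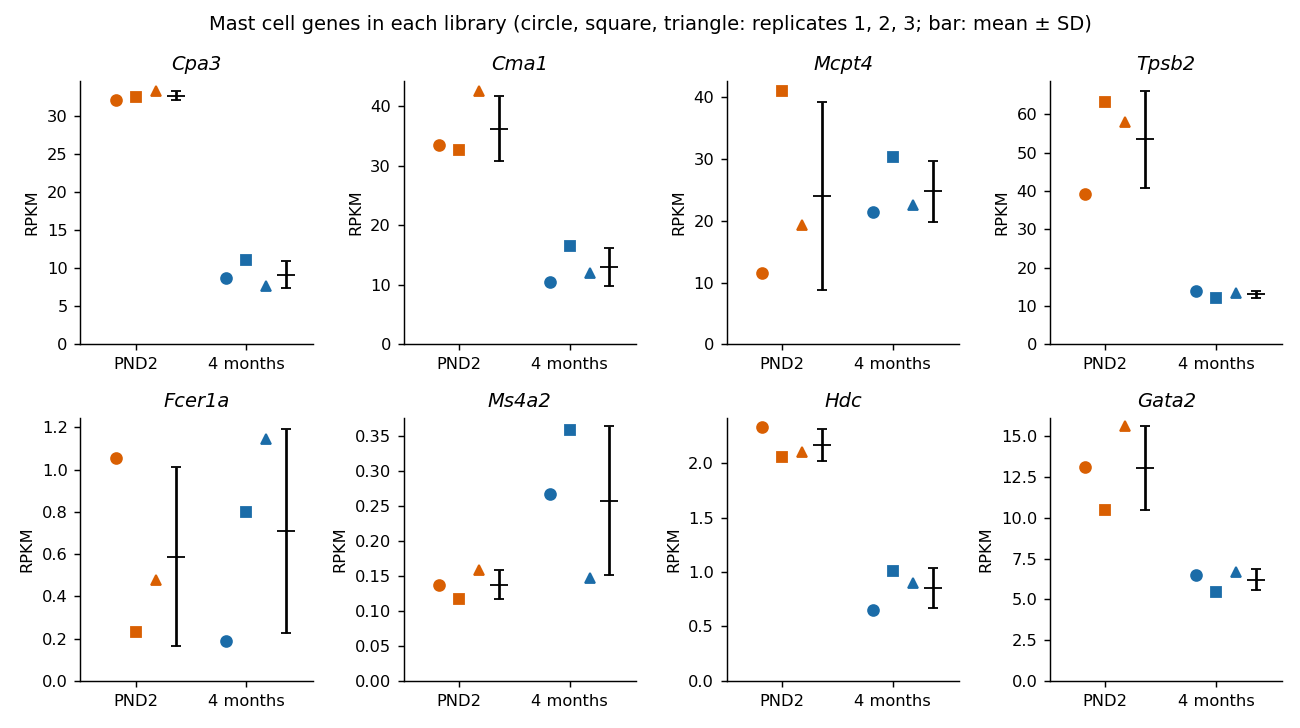
RPKM of each mast cell gene in the 3 PND2 libraries (orange) and the 3 libraries at 4 months (blue), with the mean and SD of each age in black. Each panel has its own linear axis from 0. Cpa3, Cma1, Tpsb2, Hdc and Gata2 were lower in every 4 month library than in any PND2 library, while Mcpt4, Fcer1a and Ms4a2 overlapped between the ages.

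Of the granule proteases, Tpsb2, Cpa3 and Cma1 fell with age and Mcpt4 did not pass the test. Cpa3 was 32.2, 32.5 and 33.3 RPKM at PND2 and 8.72, 11.1 and 7.70 RPKM at 4 months. The PND2 libraries were close to each other, at 32.7 ± 0.600 RPKM (SD, n = 3), and lay above every 4 month library (9.16 ± 1.73 RPKM, SD, n = 3). Cpa3 thus fell by 1.84 on the log2 scale (SE 0.14, limma adjusted p = 0.000192), with mean RPKM 3.57-fold lower at 4 months. Tpsb2 was the most abundant member at PND2, with 39.3, 63.1 and 57.9 RPKM against 13.9, 12.0 and 13.3 RPKM at 4 months. The ages did not overlap, and the mean of Tpsb2 was 4.09-fold lower at 4 months (log2 fold change -2.00, SE 0.18, limma adjusted p = 0.000333). Cma1 was 33.5, 32.6 and 42.6 RPKM at PND2 and 10.5, 16.6 and 12.0 RPKM at 4 months. Again no library overlapped, and Cma1 was 2.78-fold lower in the mean (log2 fold change -1.49, SE 0.19, limma adjusted p = 0.00131).

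Mcpt4 encodes the second chymase of connective tissue mast cells, and its level behaved differently. It was 11.6, 41.0 and 19.4 RPKM at PND2 and 21.4, 30.4 and 22.5 RPKM at 4 months. All 3 adult libraries lay inside the range of the PND2 libraries, which was set by PND2 replicate 2 at the top and PND2 replicate 1 at the bottom. The log2 fold change was 0.22 (SE 0.42, 95% interval -0.76 to 1.20, limma adjusted p = 0.717), an interval that includes no change, a fall of 0.76 and a rise of 1.20. Without PND2 replicate 1 its sign turned, to -0.21. The intervals of Cpa3 (-2.18 to -1.50), Tpsb2 (-2.42 to -1.57) and Cma1 (-1.93 to -1.04) lay wholly below that of Mcpt4.

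A share within the protease transcripts does not depend on how much mast cell RNA a library held, so each of the 4 was expressed as a percentage of their summed RPKM. The sum itself was 116, 169 and 153 RPKM at PND2 and 54.5, 70.1 and 55.5 RPKM at 4 months. Mcpt4 made up 9.92, 24.2 and 12.7% of it at PND2 and 39.3, 43.4 and 40.6% at 4 months. Every adult library was above every PND2 library, and the mean share rose from 15.6% ± 7.60 to 41.1% ± 2.10 (SD, n = 3 each), a difference of 25.5 percentage points. Tpsb2 went from 33.7, 37.3 and 37.8% to 25.5, 17.2 and 23.9%, also without overlap. The share of Cpa3 went from 27.6, 19.2 and 21.8% to 16.0, 15.8 and 13.9%, again without overlap. For Cma1 the share went from 28.8, 19.3 and 27.8% to 19.3, 23.6 and 21.6%, and here the ages overlapped. Tpsb2 held the largest of the 4 shares in every PND2 library and Mcpt4 in every library at 4 months. The shares follow from the levels given above, where Tpsb2, Cpa3 and Cma1 fell and Mcpt4 did not pass the test. They are not a separate result, and any gene that held its level would gain share beside these proteases.

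**Figure D2:**
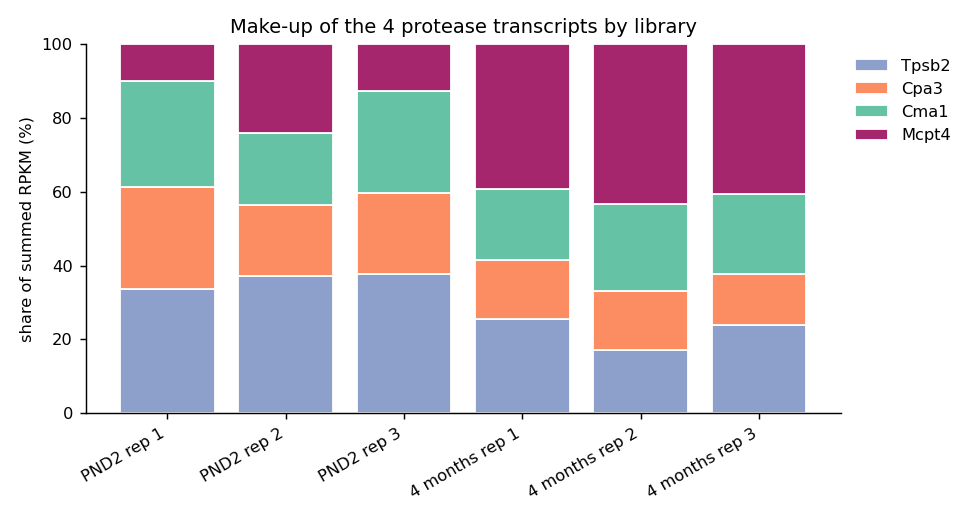
Share of Tpsb2, Cpa3, Cma1 and Mcpt4 in their summed RPKM, in percent, for each of the 6 libraries (1 stacked bar a library). Mcpt4 takes 9.92 to 24.2% at PND2 and 39.3 to 43.4% at 4 months.

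The same comparison was made as a ratio of Mcpt4 to each other protease in the same library, chosen after the values were seen. Mcpt4 stood at 0.359, 1.26 and 0.582 times the RPKM of Cpa3 at PND2 and at 2.45, 2.75 and 2.92 times at 4 months. Relative to Cma1, the other chymase, it went from 0.345, 1.26 and 0.456 to 2.04, 1.83 and 1.88. Relative to Tpsb2 it went from 0.294, 0.650 and 0.335 to 1.54, 2.53 and 1.70. The mean log2 ratio rose by 2.07 against Cpa3 (SE 0.53), by 1.72 against Cma1 (SE 0.57) and by 2.23 against Tpsb2 (SE 0.42). No ratio overlapped between the ages, and the exact 2-sided permutation test gave p = 0.1 for each of the 3, the smallest value that 3 against 3 libraries allow. Any such comparison without overlap gives that value, so it adds nothing to the lack of overlap. The 3 ratios share Mcpt4 and are not separate results, and they restate the levels and shares given above.

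Other genes were set against Cpa3 in the same way. Cma1 to Cpa3 (1.00 to 1.28 at PND2, 1.20 to 1.56 at 4 months) and Tpsb2 to Cpa3 (1.22 to 1.94 at PND2, 1.09 to 1.72 at 4 months) overlapped between the ages. Hdc was 0.0725, 0.0632 and 0.0630 of Cpa3 at PND2 and 0.0750, 0.0914 and 0.117 of it at 4 months. Kit, the receptor for stem cell factor, was 0.0702 to 0.0881 of Cpa3 at PND2 and 0.106 to 0.137 at 4 months. Slc18a2, the vesicular transporter that loads amines into granules, was 0.112, 0.0803 and 0.102 of Cpa3 at PND2 and 0.280, 0.283 and 0.316 at 4 months. Mrgprb1 (0.00667 to 0.0303 of Cpa3 at PND2, 0.0515 to 0.0816 at 4 months) and Mrgprb2 (0.0173 to 0.0242, then 0.0281 to 0.0438), receptors of mast cells, did not overlap either. Hdc, Kit, Slc18a2, Mrgprb1, Mrgprb2 and Mcpt4 were thus higher relative to Cpa3 in each adult library than in each PND2 library, by a small margin for Hdc. Cpa3 itself fell by 1.84 on the log2 scale, while the median of all genes tested was -0.14. Any gene that fell less than Cpa3 rises relative to it, so the choice of Cpa3 largely sets this direction. The share of all genes that separate in this way was not counted.

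**Figure D3:**
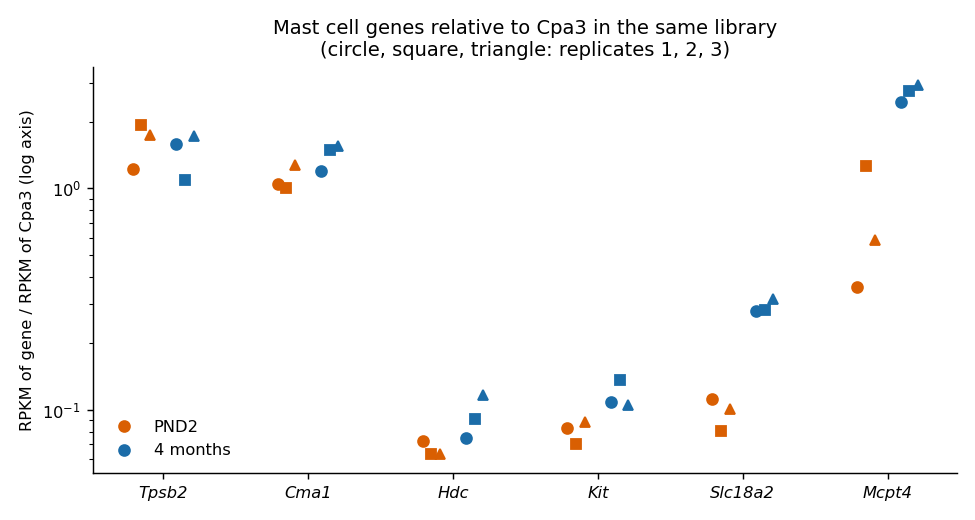
RPKM of 6 mast cell genes divided by the RPKM of Cpa3 in the same library, on a log axis, for PND2 (orange) and 4 months (blue). Tpsb2 and Cma1 overlap between the ages, and Slc18a2 (0.0803 to 0.112 against 0.280 to 0.316) and Mcpt4 (0.359 to 1.26 against 2.45 to 2.92) do not.

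PND2 replicate 2, which held the highest Mcpt4, was also the highest for Mcpt2. This gene, a chymase known from mucosal mast cells, had 12, 137 and 12 reads at PND2 and 0 reads in all 3 libraries at 4 months. It was called lower (limma adjusted p = 0.0238), and its mean was at least 16.8-fold lower at 4 months with each adult library placed at 3 reads. Without PND2 replicate 2 that bound was 3.47-fold, and the call was lost without any 1 of the 3 adult libraries (adjusted p = 0.0572 to 0.0673). Short words of 47 bases were compared between transcripts, since reads from copies can be split. Mcpt2 shared none with Mcpt4, and Mcpt4 shared 6.03% of its words with Cma2 or Mcpt9, so that a small part of its reads is uncertain. Cma2 (41.4%) and Mcpt9 (19.5%) shared more, and their low values (at most 0.590 RPKM in any library) are uncertain. Cma1 shared 6.03% of its words with the gene Gm48934, and Cpa3, Tpsb2, Fcer1a and Gata2 shared none.

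Tpsab1, another tryptase gene of mast cells, shared no such words either, and its transcript fell too. Its protein was not measured. It was 1.41, 2.49 and 2.42 RPKM at PND2 and 0.294, 0.0802 and 0.445 RPKM at 4 months (log2 fold change -2.66, SE 0.47, limma adjusted p = 0.00474). Tpsg1, a membrane-anchored tryptase, gave 0.757, 1.11 and 1.33 RPKM against 1.04, 0.937 and 0.672 RPKM, with overlap. In all, 9 of the 12 genes in the granule protease list were tested, of which 5 were called lower and 0 higher, with a median log2 fold change of -1.49. The 5 were Cpa3, Cma1, Tpsb2, Tpsab1 and Mcpt2, and 3 of them are members whose fall is already described.

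Hdc and Gata2 were the other members that fell. Hdc was 2.33, 2.06 and 2.10 RPKM at PND2 and 0.654, 1.01 and 0.898 RPKM at 4 months. All 3 PND2 libraries were above all adult ones, and the mean fell from 2.16 ± 0.148 to 0.855 ± 0.183 RPKM (SD, n = 3 each), a log2 fold change of -1.26 (SE 0.25, limma adjusted p = 0.00730). Markers of neutrophils, which can express Hdc, moved with it, and 6 of the 7 neutrophil markers tested were lower at 4 months, and their summed level went from 27.4 to 33.4 RPKM at PND2 to 0.758 to 1.78 RPKM at 4 months. Macrophage markers moved the other way, with 8 of 10 higher and a sum of 364 to 416 RPKM at PND2 against 1115 to 1235 RPKM at 4 months. The part of either cell type in the Hdc value was not tested.

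Gata2 was 13.1, 10.5 and 15.6 RPKM at PND2 and 6.48, 5.48 and 6.69 RPKM at 4 months. The ages did not overlap, and Gata2 was 2.10-fold lower in the mean (log2 fold change -1.04, SE 0.18, limma adjusted p = 0.00395). Of 10 endothelial markers, 8 were lower at 4 months and 0 higher, with sums of 545 to 766 RPKM at PND2 and 318 to 344 RPKM at 4 months, and their part in the Gata2 value was not tested. Gata1, the factor of the same family used in later mast cell stages and in red cells, had at most 0.0526 RPKM in any library and was too low to test.

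The FcεRI chains had the lowest mean levels of the members at both ages, and their levels overlapped between the ages. Fcer1a had 1.05, 0.230 and 0.479 RPKM at PND2 and 0.188, 0.800 and 1.14 RPKM at 4 months, which rest on 41, 7 and 14 reads and on 7, 19 and 33 reads. Values of both ages were spread over the same range, and the log2 fold change of 0.18 (SE 0.67, 95% interval -1.38 to 1.74, limma adjusted p = 0.859) allows a fall as large as those of Hdc and Gata2. The sign of Fcer1a turned without PND2 replicate 2 (-0.25), without 4 months replicate 2 (-0.01) or without 4 months replicate 3 (-0.25). Ms4a2 had 0.137, 0.116 and 0.158 RPKM at PND2 and 0.266, 0.358 and 0.147 RPKM at 4 months, from 10 to 28 reads a library. The log2 fold change of Ms4a2 was 0.55 (SE 0.37, 95% interval -0.33 to 1.43, limma adjusted p = 0.295).

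The reads counted on Ms4a2 lay mostly on an extension of its last exon. The annotation gives its last exon in a short form of 615 bases and a wide form of 2049 bases, and the 1434 bases that separate them held 15, 4 and 10 reads at PND2 and 20, 18 and 8 reads at 4 months. All other annotated exon sequence, 1379 bases, held 0, 6 and 3 reads at PND2 and 8, 6 and 4 reads at 4 months. At this depth Ms4a2 was thus at or near the limit of detection in PND2 replicate 1, where 0 reads allow up to 0.0558 RPKM by counting error alone. Measured without the extension, a choice made after the data were seen, its log2 fold change was 0.59 (SE 0.45, limma adjusted p = 0.351).

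**Figure D4:**
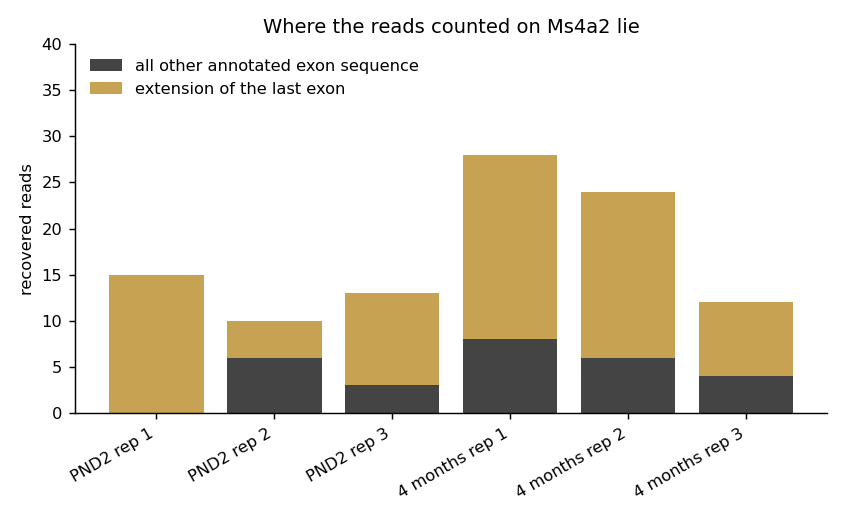
Recovered reads on the extension of the last Ms4a2 exon (tan) and on all its other annotated exon sequence (dark), stacked for each library. The extension holds more reads than the rest in every library but PND2 replicate 2, where it holds 4 of 10.

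Reads on the more abundant members lay on most of their annotated exons. Cpa3 had reads on 11 of 12 distinct exon intervals in every library, and Cma1, Mcpt4 and Tpsb2 on 5 of 5. Hdc had reads on 19 to 21 of 22 intervals and Gata2 on 13 to 14 of 14. Fcer1a had reads on 3 to 7 of 8 intervals and Ms4a2 on 1 to 7 of 18. The last exon of Mcpt4 took 19.7 to 33.1% of its reads and that of Cpa3 15.2 to 22.2%. Reads on Gata2 and Hdc were more concentrated there, as the last exon of Gata2 (1838 of 5398 exonic bases) took 58.5 to 69.8% of its reads and that of Hdc (1020 of 6389 bases) 43.7 to 53.2%.

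Within an age, co-variation differed between pairs of members. Deviations from the age mean over the 6 libraries had a Pearson r of 0.73 between Cpa3 and Cma1 and of 0.75 between Mcpt4 and Tpsb2, but of 0.14 between Cma1 and Mcpt4 and of -0.16 between Cpa3 and Tpsb2. Over all pairs of members r ran from -0.71 (Tpsb2 and Fcer1a) to 0.92 (Cpa3 and Ms4a2). These values rest on 3 libraries an age with the mean removed, and are a description. They are too few to show that a pair does not vary together. By level, the order of the protease means at PND2 was Tpsb2, Cma1, Cpa3 and Mcpt4. Tpsb2 was the highest of the 4 in every PND2 library, and the ranges of neighbours in that order overlapped. At 4 months the order was Mcpt4, Tpsb2, Cma1 and Cpa3, where Mcpt4 lay above the other 3 in every library, Tpsb2 and Cma1 overlapped, and the Cpa3 range of 7.70 to 11.1 RPKM overlapped only with that of Cma1.

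The wider mast cell pathway was described with 8 lists of 75 genes that include the members. Of the genes that define mast cells, the proteases Cpa3, Cma1 and Tpsb2 and the receptors Kit, Mrgprb1, Mrgprb2 and Fcer1a had reads in every library, and Ms4a2 had none outside its extension in PND2 replicate 1. Of the 75 genes, 66 were tested, 15 were called higher and 17 lower, with a median log2 fold change of 0.07. Without the members, 58 genes were tested, of which 15 were higher and 12 lower. Of all genes tested, 14.7% were called higher and 21.1% lower. The lower calls outside the members (12 of 58) were thus near the share of all genes. The higher calls (15 of 58) were above it, a difference that was not tested. The granule protease list had the lowest median of the 8, and the eicosanoid enzymes the highest.

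**Figure D5:**
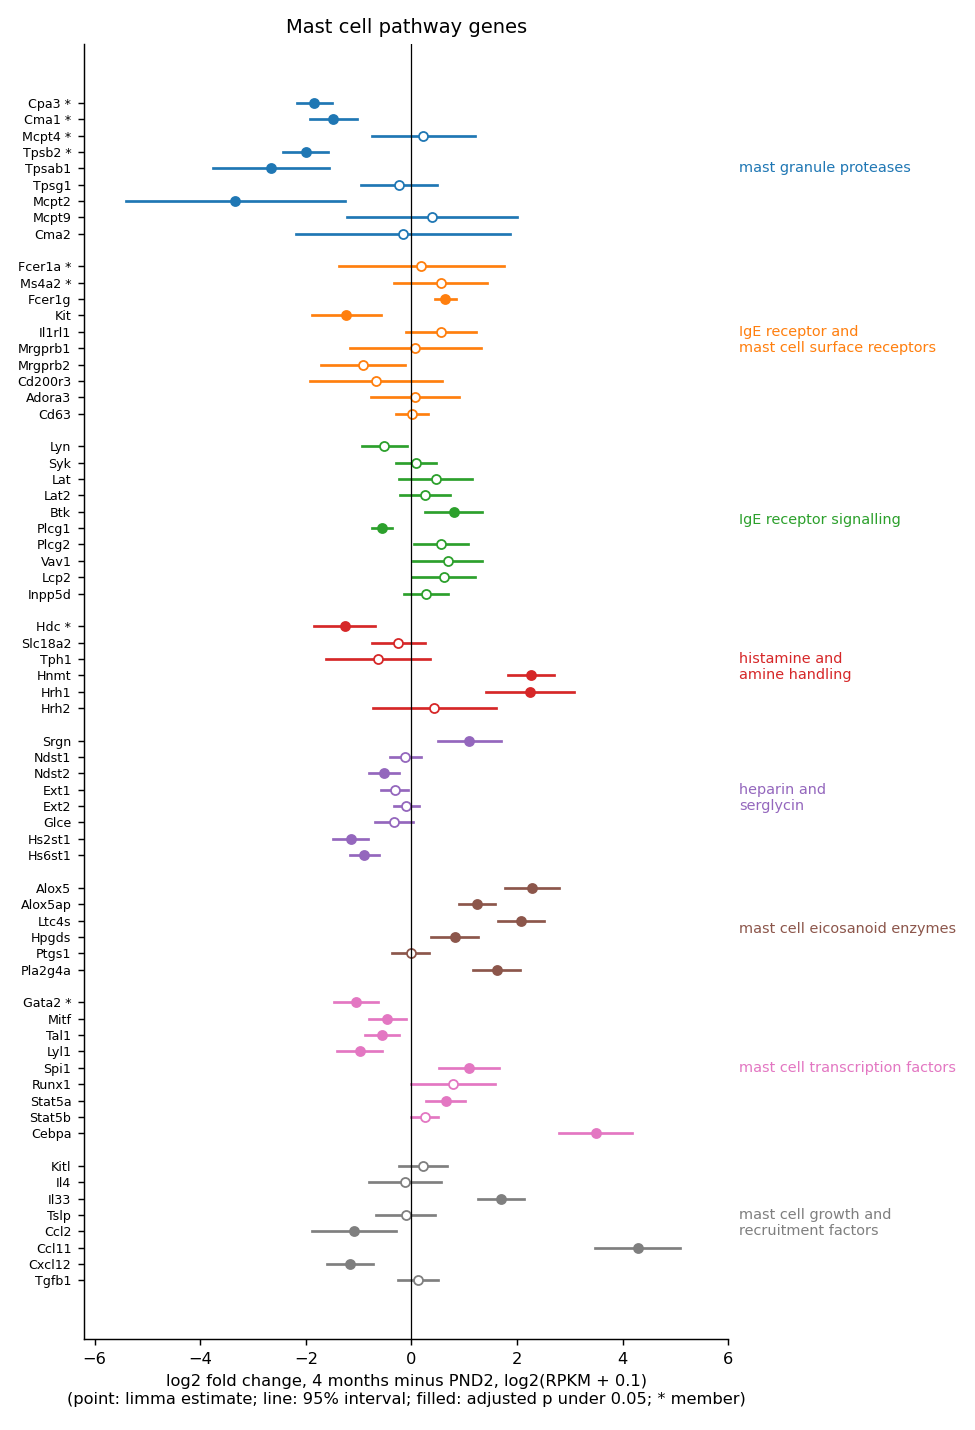
Log2 fold changes (4 months minus PND2) of the 66 tested genes of the mast cell pathway lists, with 95% intervals of limma, coloured by list. Filled points passed an adjusted p of 0.05, and members carry an asterisk. All 5 filled points of the protease list lie below 0, and all 5 of the eicosanoid list lie above 0.

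Of the 10 genes for the IgE receptor and other mast cell surface receptors, 1 was higher and 1 lower. Fcer1g, the signalling gamma chain that FcεRI shares with receptors of macrophages and other leukocytes, rose from 33.9, 34.0 and 33.9 RPKM to 53.1, 49.5 and 56.3 RPKM (log2 fold change 0.64, SE 0.09, limma adjusted p = 0.00164). Kit fell from 2.67, 2.28 and 2.94 RPKM to 0.943, 1.52 and 0.814 RPKM (log2 fold change -1.23, SE 0.28, limma adjusted p = 0.0134), a call lost without PND2 replicate 3 (adjusted p = 0.0511). Melanocytes also express Kit, and 3 of 7 melanocyte markers tested were lower, with sums of 47.4 to 97.2 RPKM at PND2 and 30.3 to 56.7 RPKM at 4 months; their part in the Kit value was not tested. Mrgprb2, the receptor for basic peptides and drugs on connective tissue mast cells, was 0.556, 0.789 and 0.757 RPKM and then 0.245, 0.485 and 0.266 RPKM, without overlap but with a limma adjusted p of 0.0731. Its relative Mrgprb1 (0.214 to 0.987 RPKM at PND2, 0.396 to 0.903 RPKM at 4 months) and the IL-33 receptor Il1rl1 (0.588 to 1.02 against 1.12 to 1.34 RPKM) did not pass either.

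Among the 10 genes that signal below the receptor, 1 was higher and 1 lower. Plcg1, a phospholipase used by many cells, fell by 0.56 on the log2 scale (SE 0.08, limma adjusted p = 0.00223). Btk, a kinase of mast, B and myeloid cells, was higher by 0.80 (SE 0.23, limma adjusted p = 0.0331), a call lost on leaving out any 1 library other than PND2 replicate 1 (adjusted p = 0.0767 to 0.0977). In the histamine and amine list, 6 genes were tested, of which 2 were higher and 1, Hdc, lower. Hnmt, which methylates and inactivates histamine, rose from 2.73, 2.33 and 2.07 RPKM to 13.1, 12.7 and 9.69 RPKM (log2 fold change 2.27, SE 0.18, limma adjusted p = 0.000223). The histamine receptor Hrh1 rose from at most 0.0663 RPKM at PND2 to 0.499, 0.500 and 0.512 RPKM (limma adjusted p = 0.00306). Slc18a2 was 3.61, 2.61 and 3.39 RPKM and then 2.44, 3.14 and 2.43 RPKM, with overlap (log2 fold change -0.25, SE 0.21, limma adjusted p = 0.399).

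Of 8 genes for serglycin and heparin, 1 was higher and 3 lower. Srgn, the proteoglycan core that holds proteases in the granule and that other leukocytes also make, rose from 5.74 to 11.2 RPKM at PND2 to 14.7 to 21.4 RPKM (log2 fold change 1.10, SE 0.25, limma adjusted p = 0.0146), a call lost without 4 months replicate 3 (adjusted p = 0.0553). The sulfotransferases Hs2st1 (log2 fold change -1.15) and Hs6st1 (-0.89), used by most cells for heparan sulfate, fell. Ndst2, the sulfotransferase that mast cell heparin needs, fell by 0.52 (limma adjusted p = 0.0163), a call lost without PND2 replicate 2 or 3 or 4 months replicate 2 or 3 (adjusted p = 0.0517 to 0.0561). Of 6 eicosanoid enzymes, 5 were higher and 0 lower, with a median log2 fold change of 1.42. Alox5 rose from 0.814 to 1.01 RPKM to 4.20 to 5.67 RPKM, and Ltc4s, which makes leukotriene C4, from 2.28 to 2.98 RPKM to 9.87 to 13.4 RPKM. Alox5ap (log2 fold change 1.24), Pla2g4a (1.61) and the prostaglandin D synthase Hpgds (0.82) were the others, of which Hpgds lost its call without 4 months replicate 1 (adjusted p = 0.0515). These enzymes are also made by macrophages, whose markers rose as given above, and that part was not tested.

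Of 9 transcription factors tested, 3 were higher and 4 lower. Gata2 and Lyl1 (log2 fold change -0.98, SE 0.18, limma adjusted p = 0.00620) fell, as did their partner Tal1 (-0.56), whose call was lost without PND2 replicate 3 or 4 months replicate 1 (adjusted p = 0.0531 and 0.0546). Mitf, a regulator of mast cells and melanocytes, was 9.32, 9.06 and 9.34 RPKM and then 5.86, 8.01 and 6.37 RPKM (limma adjusted p = 0.0482), a call lost on leaving out any 1 library other than 4 months replicate 2 (adjusted p = 0.0876 to 0.131). Spi1, the myeloid factor PU.1, rose by 1.09 (limma adjusted p = 0.0117), and Cebpa, used by myeloid cells and adipocytes, by 3.49 (limma adjusted p = 0.000251). Stat5a was the third factor higher (0.65), and its call was lost without PND2 replicate 3 or 4 months replicate 1 (adjusted p = 0.0549 and 0.0565).

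Of 8 growth and recruitment factors tested, 2 were higher and 2 lower. Kitl, the stem cell factor on which mast cells depend, was 16.7, 12.0 and 12.5 RPKM at PND2 and 13.0, 19.6 and 15.6 RPKM at 4 months, with overlap and a log2 fold change of 0.22 (SE 0.19, limma adjusted p = 0.415). Il33, an alarmin that activates mast cells, rose from 13.6, 10.2 and 8.48 RPKM to 39.5, 33.8 and 30.8 RPKM (log2 fold change 1.70, SE 0.19, limma adjusted p = 0.000705). The chemokine Ccl11 rose by 4.28 (SE 0.34), while Cxcl12 fell from 107, 173 and 171 RPKM to 62.5, 68.2 and 65.7 RPKM (log2 fold change -1.17, SE 0.18, limma adjusted p = 0.00311). Ccl2 was lower by 1.09 (limma adjusted p = 0.0404), a call lost without PND2 replicate 1 or 2 or 4 months replicate 1 or 2 (adjusted p = 0.0902 to 0.111). Il9 had no reads in any library.

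Markers of other cell types were set beside the members. Mcpt8, the protease that defines basophils, had 0 reads in all 6 libraries, and Prss34, the other basophil protease, had 41, 21 and 34 reads at PND2 and 0, 13 and 10 reads at 4 months (limma adjusted p = 0.0810). Of 4 basophil genes tested, 1 was lower and 0 higher, with sums of 9.15 to 10.3 RPKM at PND2 and 6.33 to 8.45 RPKM at 4 months. The 1 gene was Itga2, an integrin chain that platelets and other cells also carry, named because it made up that count (log2 fold change -1.32, limma adjusted p = 0.0269). Its call was lost without PND2 replicate 1 or 3 or 4 months replicate 2 or 3 (adjusted p = 0.0518 to 0.0826). Cpa3, Cma1 and Tpsb2 fell while 9 of 10 pan-leukocyte markers rose, from a sum of 187 to 210 RPKM to one of 286 to 338 RPKM. Relative to the summed pan-leukocyte markers, the summed RPKM of the 4 proteases was 0.624, 0.848 and 0.729 at PND2 and 0.161, 0.245 and 0.171 at 4 months. The ages did not overlap. Per unit of Ptprc, the CD45 gene of all leukocytes, the summed RPKM of the 4 proteases was 173, 287 and 217 at PND2 and 19.7, 25.0 and 23.1 at 4 months, and Ptprc had the largest rise of the 10 markers (log2 fold change 1.86, against a median of 1.19). Valve interstitial markers were abundant at both ages, with sums of 6061 to 6531 RPKM at PND2 and 7691 to 9703 RPKM at 4 months. Markers of other tissue differed, as cardiomyocyte marker sums were 17292 to 19930 RPKM at PND2 and 6912 to 10607 RPKM at 4 months, and adipocyte marker sums were 69.9 to 152 RPKM and then 396, 1620 and 399 RPKM. The library highest in adipocyte markers, 4 months replicate 2, also had the highest Cpa3, Cma1, Mcpt4, Ms4a2 and Hdc of its age, and the lowest Tpsb2 and Gata2. Without it the 5 members called lower were still called, with log2 fold changes of -1.98 for Cpa3, -1.67 for Cma1, -1.94 for Tpsb2, -1.38 for Hdc and -0.96 for Gata2.

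The genes whose pattern over the 6 libraries was closest to the mean of Cpa3, Cma1, Mcpt4 and Tpsb2 were not mast cell genes. Among 20871 genes ranked by Pearson r, the 10 highest were Gm12458, E130208F15Rik, C1qtnf4, Cand2, Parg, Pla2g4b, Rbl1, Mdp1, Gtf3c1 and Hn1l, with r from 0.996 to 0.998. Tpsab1 stood at rank 3998 (r = 0.876), Kit at rank 2970 (r = 0.909) and Slc18a2 at rank 9620 (r = 0.477). With 3 libraries an age, such an r is set largely by the difference between the ages that many genes share.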

How the data were processed

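Aortic valve RNA of 3 PND2 and 3 4 month libraries was analysed. The kit was TruSeq stranded, and whether counting used strand is not given in the sources used here. Per the submitters' notes and the study's methods, the authors trimmed reads, aligned them to mm10 with TopHat2 2.1.0, counted them on Ensembl genes and exons and deposited RPKM per gene and per exon. RPKM fixes depth and length but not composition, so abundant transcripts shift all others. Whole reads were recovered from RPKM, exonic length and library total for 100% of values (within 0.02 reads). Limits at 3 reads cover counting error only, and the 95% intervals of fold changes are those of limma, from the spread between libraries.

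The age groups, labelled as biological replicates, were compared with limma 3.58.1 (eBayes with trend) in R 4.3.3 on log2(RPKM + 0.1), since RPKM is not a count. An unequal-variance test modelled on the study's was an alternative, run over the same genes and, as an addition made after the data were seen, over the 19971 genes with 50 or more reads in 2 libraries. In data simulated for this comparison on 25903 genes, of which 200 were changed, limma found 55% of 2-fold and 95% of 4-fold changes. The unequal-variance test found 0% there. Far more genes were called in the deposited data, where the adjustment is less strict, so that 0% does not carry over to them. Other alternatives were pseudocounts of 1 and 0.01, no filter, RPKM of at least 1, no trend, median scaling, quantile normalization, voom on recovered reads, a replicate block and each library left out. Shares within the proteases were also taken over recovered reads. Tables used Python 3.11.15.

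The members and gene lists were chosen with earlier results of these data known, and 1 gene first placed in a list is not reported here. Members were always named. From the lists, genes used in few other cells and the 2 largest fold changes came first, others by their place in a list or because they were called, and the 10 genes most like the proteases by rank. The Mcpt4 ratios and the Ms4a2 alternative were chosen after values were seen. Promoters are from RefSeq on GRCm38.p6.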

Additional observations from a re-analysis of the deposited data

How the results depend on the processing

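Of the 8 members, Cma1 kept its direction and its call in all 17 alternatives. Cpa3, Tpsb2, Hdc and Gata2 lost theirs under the unequal-variance test with a floor of 10 reads run over the 25903 genes: Cpa3 -1.85 (adjusted p = 0.0514), Tpsb2 -2.01 (0.0539), Hdc -1.36 (0.0694) and Gata2 -1.06 (0.0644). That test called 1 member lower, 1351 of all genes higher and 1780 lower against 3810 and 5463, and 9 pathway genes higher and 5 lower against 15 and 17. It found none of the changes planted in simulated data, but only 200 genes were changed there, so that result does not carry over. Over the 19971 genes with 50 reads in 2 libraries, added after the data were seen, Hdc (-1.36, adjusted p = 0.0554) and Gata2 (-1.06, 0.0512) were not called and 3 members were called lower, with 1727 genes higher and 2355 lower and 12 pathway genes higher and 8 lower. These 4 members kept their call in every other alternative. Mcpt4 turned sign without PND2 replicate 1 (-0.21). Fcer1a turned sign under voom (-0.00018), without PND2 replicate 2 (-0.25), without 4 months replicate 2 (-0.01) and without 4 months replicate 3 (-0.25), and neither gene was called in any alternative. Mrgprb1 turned sign with a pseudocount of 1 (-0.00085), without PND2 replicate 1 (-0.45) and without 4 months replicate 2 (-0.20), with a range of -0.45 to 0.44 over the libraries left out. Among named genes outside the members, the unequal-variance test over 25903 genes lost the calls of Tpsab1, Mcpt2, Kit, Fcer1g, Btk, Srgn, Ndst2 and Pla2g4a. It also lost those of Mitf, Lyl1, Spi1, Stat5a, Ccl2, Cxcl12 and Itga2. These and Kit, Srgn and Ndst2 were not called over the 19971 genes either.

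Leaving out each library gave log2 fold changes of -1.98 to -1.72 for Cpa3, -1.67 to -1.34 for Cma1, -0.21 to 0.70 for Mcpt4, -2.21 to -1.86 for Tpsb2, -0.25 to 0.81 for Fcer1a, 0.35 to 0.79 for Ms4a2, -1.38 to -1.10 for Hdc and -1.19 to -0.91 for Gata2. It gave 3503 (without PND2 replicate 3) to 5241 genes lower, 2808 to 3447 genes higher, 12 to 15 pathway genes higher, 13 to 16 lower and 5 members lower throughout. The share of Mcpt4 differed by 22.6 to 29.8 percentage points. Deviations of same-numbered replicates had r of 0.04, -0.06 and -0.16, inside the range of the other pairs (-0.18 to 0.23). With 3 libraries an age these values cannot show whether the numbers pair the pools. With a replicate block 5 members were called lower and 0 higher, with Hdc at a limma adjusted p of 0.0301. With at least 1 RPKM in 3 libraries Fcer1a and Ms4a2 were not tested, so no value exists for them there, nor with the 50-read minimum. Depth limits Fcer1a and Ms4a2, which rest on 7 to 41 and 10 to 28 reads a library. Voom on recovered reads called 4092 genes higher and 5604 lower. Among named genes outside the members, median scaling lost the calls of Mitf, Tal1 and Ccl2, and quantile normalization those of Mitf and Ccl2. A pseudocount of 1 lost those of Mcpt2 and Mitf. Without the filter Btk, Mitf and Ccl2 lost theirs, and without the trend Mitf and Ccl2. A replicate block lost those of Btk, Ndst2, Hpgds, Mitf, Tal1, Stat5a and Ccl2. Calls were also gained, all of them lower at 4 months. Mrgprb2 gained one without the trend (limma adjusted p = 0.0390). Prss34 gained one with a pseudocount of 1 (limma adjusted p = 0.0407) and one without 4 months replicate 2 (0.0470).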
